A study of Homo sapiens with 8 samples.

Results

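The comparison set SETD2 clones against empty vector controls in 2 B cell precursor acute lymphoblastic leukaemia lines at once, with the line as stratum. Peaks of all 8 ATAC-seq lists that shared at least 1 bp were merged into 133028 regions, and 112991 of these lay on the 19 autosomes other than 8, 13 and 19. Within a line, gained means a call in both clone libraries and in none of the controls, and lost means the reverse. By this rule 177 of the 112991 regions were gained or lost in both lines. A looser count, the net change, took any region for which more clone than control libraries, or fewer, called it, and 6127 regions had a net change in both lines.

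ATAC-seq marks open chromatin, because the Tn5 transposase inserts adapters where DNA is not wrapped tightly or covered by protein. SETD2 travels with elongating RNA polymerase and methylates a lysine of histone H3 in the bodies of active genes. 697 and KOPN-8 are established cell lines grown under the same conditions. Each line gave 2 libraries with an empty guide vector (labelled SETD2 WT) and 2 from a single clone that received a SETD2 guide (labelled SETD2 heterozygous KO), which is BM_B in 697 and BA in KOPN-8. The genotype stands in a label field meant for an antibody. With 1 clone per line, an effect of the edit and a trait of that clone cannot be told apart. The 2 lines share no control library. Positions are in hg19 and counted from 1. No gene annotation or genome in that build was used, so regions are given by position, without gene names and without their sequence, and neither the edit nor cell type markers were checked.

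The lists held between 49075 and 65591 peaks on the 19 autosomes, the shortest from 697 control 1 and the longest from 697 clone 2. Read depth is unknown. The number of peaks was higher in the clone by 5256 on average in 697 and by 417 in KOPN-8, and the arms overlapped in both lines (exact permutation within lines, two-sided, p = 0.5). Libraries of a group are called biological replicates in the labels, without further detail, so p-values measure only how these samples vary, some of which may be technical. With 2 against 2 libraries in each line no permutation of libraries can give a two-sided p below 0.0556, and no such test could pass 0.05.

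The 177 regions comprised 73 with a gain in both lines and 31 with a loss in both. Opposite changes made up the rest, 47 with a gain in 697 and a loss in KOPN-8, and 26 with a loss in 697 and a gain in KOPN-8. The same direction was thus seen in 104 regions, or 58.8%. With 1 library left out, which by construction asks for fewer calls, this share ranged from 52.8% to 59.9%. The regions all come from the same 8 libraries and are not replicates, so no interval or p is given. All 177 had to be called in both lines, as had 44948 of the regions. Within these 44948, the 697 clone gained 1537 (3.42%) and lost 451 (1%), and the KOPN-8 clone gained 1227 (2.73%) and lost 1187 (2.64%). On all 112991 regions the percentages were 3.05% and 1.23% in 697 and 2.6% and 2.32% in KOPN-8.

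Regions that moved in one line moved more often in the other line, in either direction, than regions did in general. Of the 1537 regions gained in 697, 4.75% were gained in KOPN-8, against 2.73% of all regions called in both lines, and 3.06% were lost there, against 2.64%. Of the 451 lost in 697, 6.87% were lost in KOPN-8 and 5.76% were gained there. Seen from KOPN-8, 5.95% of its 1227 gained regions were gained in 697, against 3.42% of all, and 2.61% of its 1187 lost regions were lost there, against 1%.

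Much of this went with peak width. The 44948 regions were split into 10 classes by the median width of their peaks. In the narrowest class, 200 to 231.5 bp, 7.65% of regions were gained and 3.20% lost in 697, and 5.94% were gained and 5.47% lost in KOPN-8. In the widest class, 783.5 to 2259 bp, the shares were 0.245% and 0.0667% in 697 and 0.4% and 0.111% in KOPN-8. Of the 177 regions changed in both lines, 121 lay in the 3 narrowest classes and 4 in the 4 widest. Their median peak width was between 245 and 261 bp in each of the 4 groups, against 343 bp over all regions called in both lines.

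**Figure D1:**
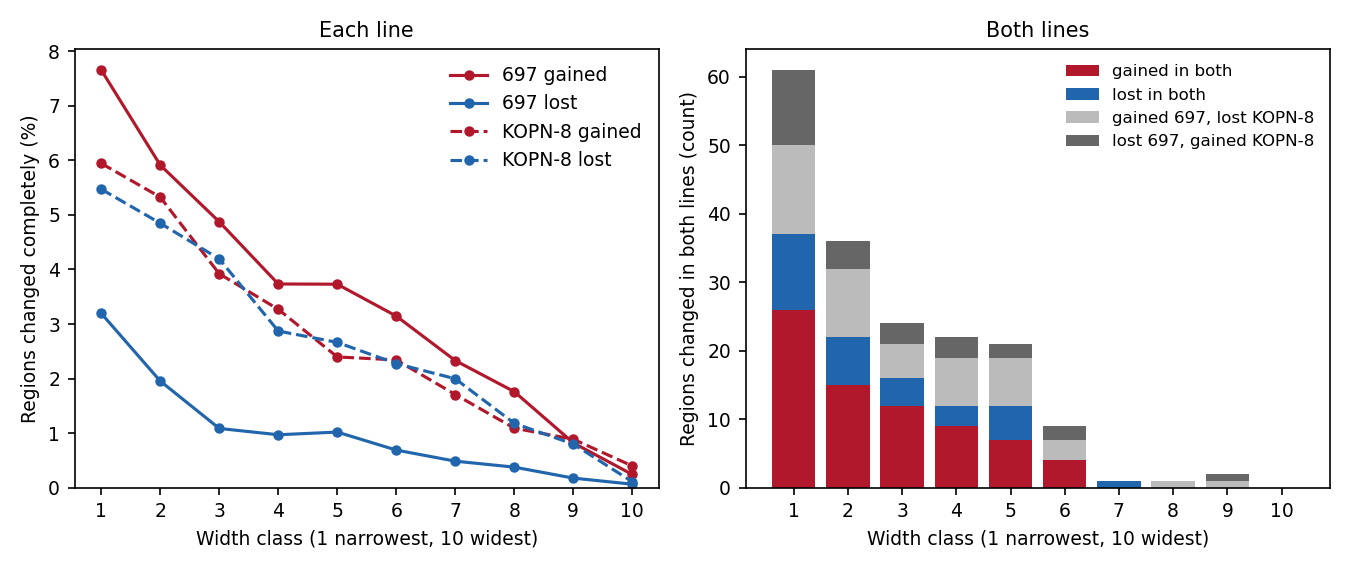
Left, the percentage of regions gained (red) or lost (blue) in 697 (solid) and KOPN-8 (dashed) in 10 classes of peak width, over 44948 regions called in both lines. Right, the number of regions changed in both lines, stacked by direction. All 4 lines fall from the narrowest to the widest class, and 121 of the 177 regions lie in the 3 narrowest.

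After matching by width the sum of opposite changes was close to its matched count, and that of shared changes was above it. The product of the 2 lines' shares, summed over the 10 width classes, gives 77.1 regions moving the same way and 75.7 moving oppositely, where 104 and 73 were seen. Without width classes it gives 53.9 and 52.9. By direction, the matched counts are 59.0 gained in both lines (73 seen), 18.0 lost in both (31 seen), 56.7 gained in 697 and lost in KOPN-8 (47 seen) and 19.03 in the reverse case (26 seen). The ratio of seen to matched counts was 1.72 for regions lost in both lines, 1.37 for those lost in 697 and gained by the KOPN-8 clone, 1.24 for those gained in both and 0.829 for the fourth class, so that one of the opposite classes lay above one of the shared ones. The odds ratio of direction (same against opposite) was 1.85 without matching and 1.82 within width classes. Single libraries moved it. Leaving out KOPN-8 clone 1 brought the unmatched value to 1.06, and leaving out 697 control 2 brought it to 2.09. Without 697 control 1 there were 101 shared gains and 110 shared losses, but a loss in 697 then needs a call in control 2 alone. All regions lost in 697 rose from 1394 to 9105 and those gained from 3443 to 4623. These counts therefore cannot say whether the excess of shared gains rested on that library.

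The net change gave ratios closer to 1, again highest for regions lower in both lines (1.25) and lowest for those up in 697 and down in KOPN-8 (0.983). Here 2108 regions were higher in both clones, 1161 lower in both, 1832 higher in 697 and lower in KOPN-8 and 1026 the reverse. In single lines 19.2% and 8.93% of the 44948 regions moved up and down in 697, and 14.4% and 14.3% in KOPN-8. Direction was shared by 53.4% of the 6127 regions, and the width-matched counts were 2813 in the same and 2804 in opposite directions, against 3269 and 2858 seen. Of the KOPN-8 movers 55.0% went up where 697 had a net change of +2 libraries, 53.2% where it had +1, 49.2% where it had 0, 46.6% where it had -1 and 49.2% where it had -2. These shares were not tested against each other. Without 697 clone 2 the net change was up in both lines in 1411 regions and down in both in 1535, the reverse of the order with all libraries.

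**Figure D2:**
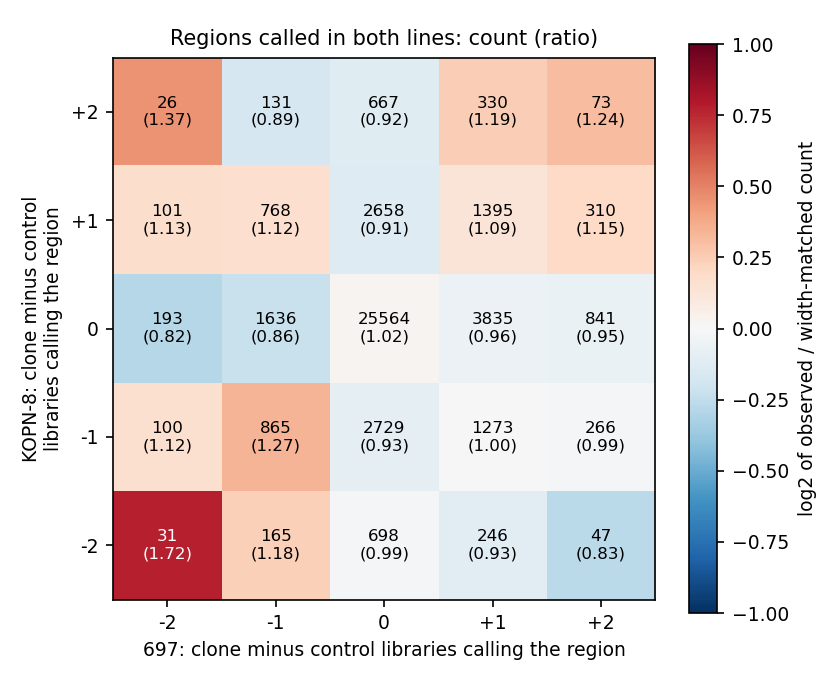
Number of regions for each combination of net change in 697 (horizontal) and KOPN-8 (vertical), as clone minus control libraries that call the region. The ratio to the width-matched count stands in parentheses and sets the colour on a log2 scale, and the corner of regions lost in both lines has the highest ratio, 1.72.

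Regions gained in both lines were weak peaks. The strongest, ranked by the smallest percentile of the authors' fold over background within the 4 lists that call it, lay at chr6:53495657-53496073. Its folds were 5.85 and 6.74 in the 697 clone and 5.23 and 7.34 in the KOPN-8 clone, and no control library called it (smallest percentile 41.2). The next were at chr10:23814403-23814658, with folds between 5.21 and 6.23, and at chr21:37625787-37626132, with folds between 5.04 and 8.27. Then came chr1:211780261-211780569, chr12:107796266-107796535 and chr11:111984207-111984468, the last with a percentile of 34.6. Over all 73 the median of the smallest percentile was 15.6, against 29.7 over all regions called in both lines. It was 16.6 over all such regions gained in 697 and 16.9 over those gained in KOPN-8. In the opposite classes it was 12.5 (gained in 697) and 15.8 (lost in 697), so low percentiles were not particular to shared gains.

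Among regions called in both lines, the median smallest percentile was 12.2 for all lost in 697 and 15.3 for all lost in KOPN-8. Regions lost in both lines were weaker still, with a median of 8.79. The first, at chr17:69469397-69469675, had folds of 5.56 and 5.30 in the 697 controls and 6.74 and 5.53 in the KOPN-8 controls and no call in either clone (smallest percentile 42.4). The region at chr3:19468982-19469339 had folds of 5.39 and 5.61 in 697 and 8.08 and 6.65 in KOPN-8. The other 4 named by the rule were chr7:77317092-77317355, chr16:82687562-82687852, chr10:45899543-45900032 and chr4:108131957-108132560, with percentiles down to 20.9. Chromosome 4 held 7 and chromosome 5 held 6 of the 31 regions lost in both lines, and 3 and 2 of the 73 gained in both. These chromosomes held 165 and 109 of the 1394 regions lost in 697 and 9201 and 8262 of all 112991 regions, and the small counts were not tested.

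Opposite changes held the strongest single region of all 177. At chr3:141943711-141944662 the 697 controls had folds of 10.4 and 8.68 and the 697 clone no call, while the KOPN-8 clone had folds of 10.8 and 13.3 and its controls no call (smallest percentile 76.4, median peak width 661.5 bp). The next of that class, at chr2:218990306-218990797, reached only 34.3. The remaining ones named were chr6:134401290-134401705, chr15:91685431-91685653, chr6:5303513-5303815 and chr10:52374288-52374624. In the other direction the first region, at chr4:95822376-95823247, had folds of 8.12 and 6.39 in the 697 clone and 12.7 and 10.7 in the KOPN-8 controls (55.7). It was followed by chr1:116272437-116272797, with folds of 6.27 and 6.68 in the 697 clone and 9.87 and 6.58 in the KOPN-8 controls (51.8). The others named were chr9:21042463-21042881, chr4:187823539-187823971, chr17:19250306-19250592 and chr2:32940366-32940743, with percentiles down to 34.0.

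The distance to the nearest region called in all 8 libraries had a median of 14.5 kb for regions gained in both lines and 22.03 kb for those gained in 697 and lost by the KOPN-8 clone. It was 47.2 kb for regions lost in both lines and 41.6 kb for those lost in 697 and gained by the KOPN-8 clone. All 451 regions lost in 697 and called in both lines had a median of 38.3 kb, against 20.9 kb over all regions called in both lines, so the longer distance was not particular to shared losses. Within 1 kb of such a region lay 9 of the 73 gained in both (12.3%), 3 of the 31 lost in both (9.68%) and 8.24% of all regions. The 19 chromosomes were also split at their median number of protein-coding genes per Mb, 5.89, counted in the RefSeq table of GRCh38, which left 9 chromosomes above and 9 below. Of the 31 regions lost in both lines 7 lay on gene-dense and 22 on gene-poor chromosomes, while the 73 gained in both divided into 35 and 33. All regions lost in 697 divided into 447 and 840, and all lost in KOPN-8 into 1056 and 1415. Those gained divided into 1448 and 1721 in 697 and into 1320 and 1442 in KOPN-8, and all regions into 44609 and 60396. Among changed regions of single lines, 76.4% were gained on gene-dense and 67.2% on gene-poor chromosomes in 697, and 55.6% and 50.5% in KOPN-8. When the odds ratio of direction was taken within chromosomes it was 1.55, and within windows of 10 Mb it was 1.32. For the net change these values were 1.27 and 1.16, against 1.302 within width classes. A window with a single changed region adds nothing to such a ratio, so the 1.32 rests on only part of the 177 regions. Whether location accounts for the lower values was not tested. Neighbours within 100 kb that all 8 libraries call, found for 67 of the regions gained in both lines and 18 of those lost in both, were compared by their rank of fold, on the percentile scale described next. Beside regions lost in both lines their median rank change was -2.97 percentile points in 697 and -1.46 in KOPN-8, and beside regions gained in both it was 0.831 and -0.456, against -0.667 and 0.131 beside all regions. The values beside all regions lost in 697 were -3.31 and -2.03, and beside those lost in 697 and gained by the KOPN-8 clone -4.14 and 3.19, so the lower ranks in 697 were found beside its losses in general.

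Strength rather than presence of a call was compared in the 23350 regions called in all 8 libraries. In each library these regions were ranked by fold, from 0 for the weakest to 100 for the strongest. All libraries thus rank the same regions, although list length can affect which regions are called in all 8. The part of depth in the ranks was not tested. Ranks are relative, so that higher ranks on some chromosomes go with lower ranks on others. Mean ranks of whole chromosomes differed between clone and control in much the same way in both lines. Chromosome 22 had mean ranks of 34.2 and 34.6 in the 697 controls against 38.4 and 45.0 in the 697 clone. In KOPN-8 the controls had 46.7 and 48.3 and the clone had 53.7 and 50.9. Both clones lay above their controls without overlap, by 7.35 and 4.75 percentile points.

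Chromosome 17, with the most genes per Mb of the 19, had mean ranks of 36.2 and 37.0 in the 697 controls against 38.4 and 41.9 in the clone. In KOPN-8 the controls had 49.96 and 50.9 and the clone had 54.2 and 51.4, so that the arms were apart in both lines. Chromosome 16 behaved alike, with differences of 3.57 and 2.21. Chromosome 20 had the second highest difference in 697, 5.83, but in KOPN-8 its clone values of 57.8 and 55.7 overlapped the control values of 54.4 and 55.8.

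Several gene-poor chromosomes had lower ranks in both clones. Chromosome 4 had mean ranks of 52.8 and 52.8 in the 697 controls against 52.5 and 50.7 in the clone, and 50.9 and 49.9 in the KOPN-8 controls and 46.9 and 48.5 in the clone. The differences were -1.21 and -2.67 there, -1.12 and -1.53 on chromosome 18, -1.87 and -0.96 on chromosome 5 and -1.001 and -0.743 on chromosome 2. The arms were apart in the same direction in both lines on 11 of the 19 chromosomes, higher on 15, 16, 17, 21 and 22 and lower on 2, 4, 5, 9, 11 and 18. Some of these gaps were very small. On chromosome 11 the lower 697 control had 50.7177 and the higher 697 clone library 50.7155. On chromosome 9 the differences were -1.49 in 697 and -0.199 in KOPN-8. In single lines the arms were apart upwards on 6 (31.6%) and downwards on 9 (47.4%) in 697 and on 8 (42.1%) and 6 (31.6%) in KOPN-8. Chromosome 10 was apart in opposite directions. For the 11 the exact permutation p was 0.0556, the smallest possible, and 0.096 after Benjamini-Hochberg adjustment over 19 chromosomes. Ranks by chromosome were added after seeing the data, so these tests were not planned. Gene density did not order the chromosomes fully, since 21 lies below the median density and was higher in both clones, and 11 is the second most gene-dense and was lower in both, by small differences of -0.593 and -0.585.

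**Figure D3:**
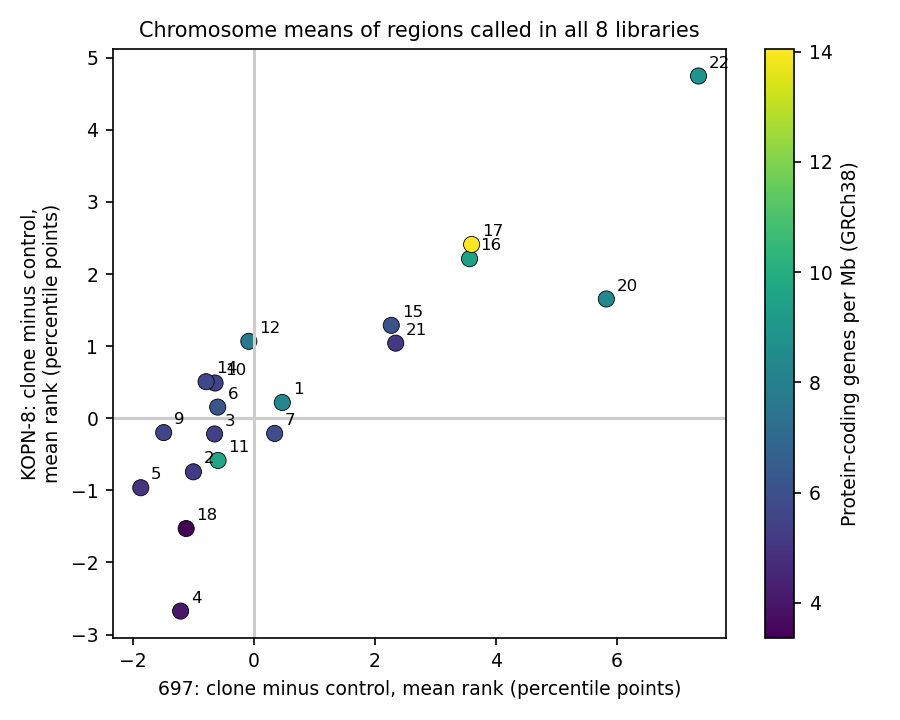
Clone minus control mean rank of each of 19 chromosomes in 697 (horizontal) and KOPN-8 (vertical), in percentile points, coloured by protein-coding genes per Mb. Chromosomes 22, 17, 16, 20, 15 and 21 lie in the upper right and 4, 18, 5 and 2 in the lower left.

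Across the 19 chromosomes the differences of the 2 lines had a Spearman rho of 0.85 and a Pearson r of 0.87. These points all come from the same 8 libraries and are not independent, so no p is given. Without 697 clone 2 the rho was 0.62, and without chromosomes 16, 17, 20 and 22 it was 0.70 over 15. Against genes per Mb the rho was 0.74 in 697 and 0.70 in KOPN-8. Differences between replicates of a clone had values of like size, 0.80 for 697 clone 2 minus clone 1 and -0.74 for KOPN-8 clone 2 minus clone 1. For control 2 minus control 1 the rho was 0.50 in KOPN-8 and 0.049 in 697. The relation to gene density was thus not particular to clone against control. The mean rank on gene-dense minus that on gene-poor chromosomes was -3.81 and -3.95 in the 697 controls against -2.76 and -0.77 in the clone. The KOPN-8 controls had 0.21 and 0.95, and the KOPN-8 clone had 2.59 and 1.43. The clones were higher by 2.11 and 1.43, without overlap in either line (exact permutation within lines, two-sided, p = 0.0556, the smallest possible). The split by gene density was added after seeing the data, so this p does not come from a planned test. Regions on gene-dense chromosomes were also relatively wider in the clones, by 0.05 in 697 and 0.01 in KOPN-8 on the log2 scale of width, again without overlap.

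**Figure D4:**
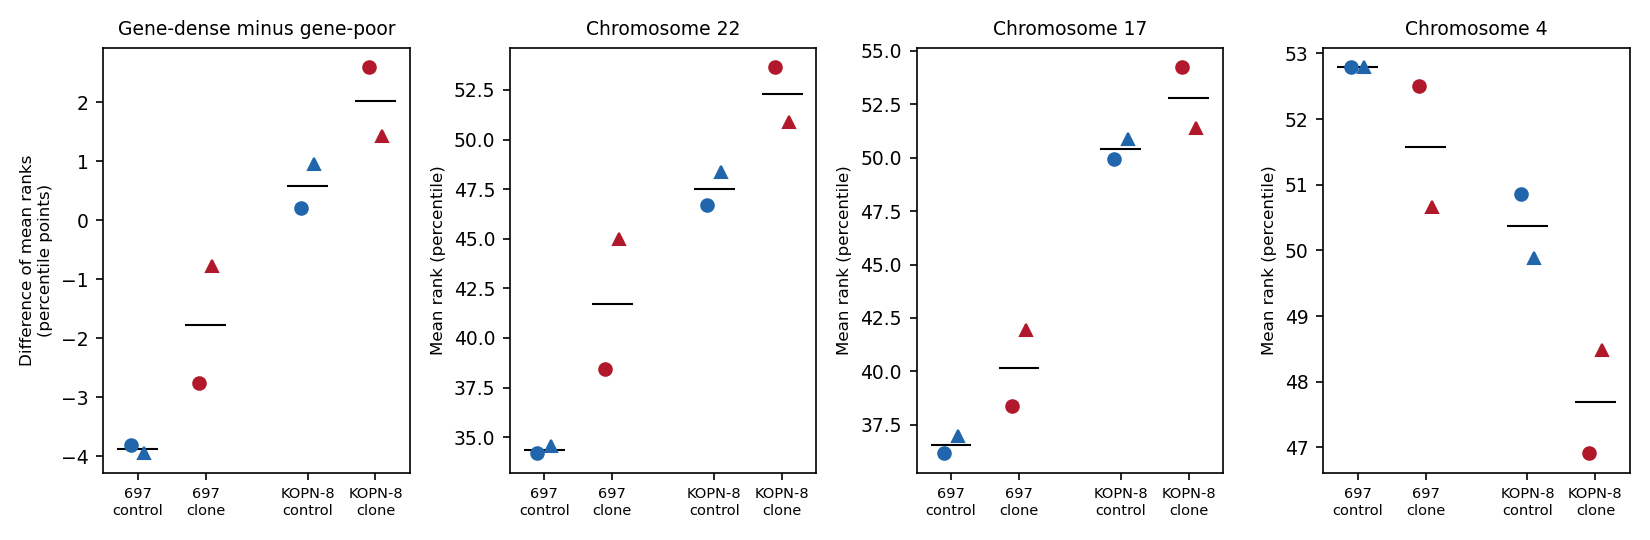
Each point is 1 library (circles replicate 1, triangles replicate 2; blue control, red clone) and bars are group means. The gene-dense minus gene-poor difference and the mean ranks of chromosomes 22 and 17 are higher in both clones than in their controls, and that of chromosome 4 is lower. The vertical axes do not start at 0.

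Duplicates of the same clone differed along the same chromosomes. The SD over chromosomes of the difference between replicates was 0.59 in the 697 controls and 0.78 in the KOPN-8 controls, but 2.18 in the 697 clone and 1.27 in the KOPN-8 clone. The differences between arms had SDs of 2.62 and 1.63. In 697 the second clone library lay farther from the controls, and in KOPN-8 the first one did. The profile of 697 clone 2 minus clone 1 had a rho of 0.83 with the arm difference of KOPN-8, and that of KOPN-8 clone 2 minus clone 1 had a rho of -0.84 with the arm difference of 697. The KOPN-8 controls, replicate 2 minus 1, had a rho of 0.72 with the arm difference of 697. In each clone the library farther from the controls also had the longer peak list (65591 against 54056 in 697 and 58021 against 55723 in KOPN-8), and the part of depth in this was not tested. In the controls the longer list went with the lower gene-dense minus gene-poor difference, -3.95 against -3.81 in 697 (60061 against 49075 peaks) and 0.21 against 0.95 in KOPN-8 (59334 against 53577 peaks).

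Likeness between the lines grew with the size of the unit. Over single regions the r between the rank changes of the 2 lines was 0.09. It was 0.12 in windows of 100 kb, 0.25 in windows of 1 Mb and 0.56 in windows of 10 Mb. Averages over more regions carry less counting error, and its part in this was not tested. After subtracting the mean of its chromosome from each region the r was 0.08, and after subtracting that of its 10 Mb window it was 0.05. Within a line, the change of the replicates numbered 1 and that of the replicates numbered 2 had an r of 0.25 in 697 and 0.35 in KOPN-8 over the same regions.

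**Figure D5:**
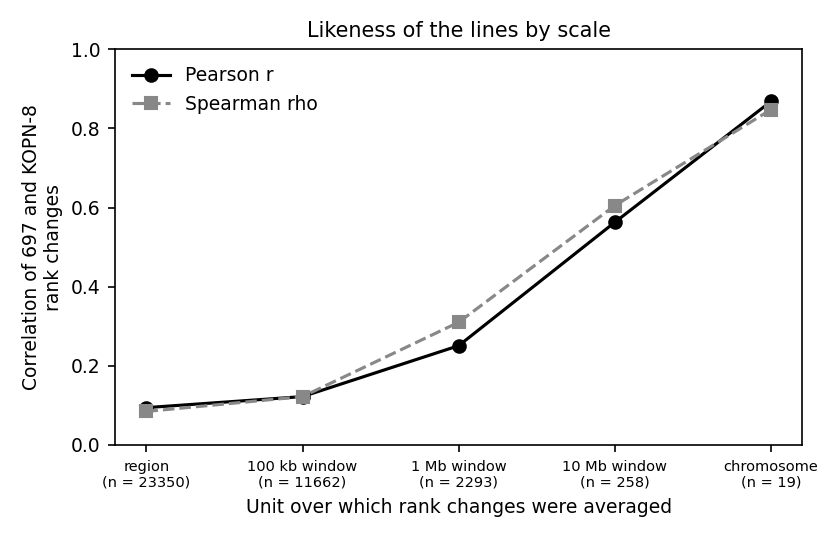
Pearson r (circles) and Spearman rho (squares) between the rank changes of 697 and KOPN-8, for regions called in all 8 libraries, averaged over units of growing size. Pearson r goes from 0.09 for single regions to 0.87 for chromosomes.

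Windows of 10 Mb placed these changes more finely. Of 244 windows with at least 30 of the regions, the change had the same sign in both lines in 176 (72.1%). The arms were apart upwards in 27% and downwards in 41% of windows in 697 and in 32.4% and 36.5% in KOPN-8. They were apart upwards in both lines in 37 windows (56.1% of the 697 list and 46.8% of the KOPN-8 list), downwards in both in 56 (56% and 62.9%), and in opposite directions in 6 and 12. Of the 56 lower windows 38 lay on gene-poor and 15 on gene-dense chromosomes, out of 124 and 104, and of the 37 higher windows 13 and 21. The lower windows made up 9 of 25 on chromosome 2, 7 of 17 on chromosome 4 and 7 of 17 on chromosome 5, and the shares were similar on chromosomes 9 (4 of 11) and 11 (5 of 14).

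The upward window with the highest smaller change was at chr22:20000001-30000000. Its mean ranks over 96 regions were 33.9 and 35.5 in the 697 controls against 37.5 and 47.3 in the clone, and 46.8 and 48.8 in the KOPN-8 controls against 57.5 and 53.0 in the clone. The downward one was at chr9:10000001-20000000, where 58 regions had mean ranks of 56.6 and 57.3 in the 697 controls against 51.7 and 48.8 in the clone, and 51.4 and 50.5 in the KOPN-8 controls against 40.0 and 43.5 in the clone. chr4:90000001-100000000 followed, with changes of -6.59 and -7.25, then chr2:180000001-190000000, with -6.30 and -6.68. Single chromosomes were not uniform, as the gene-dense chromosome 12 held a window from 80000001 to 90000000 with -8.22 and -5.75.

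Among single regions called in all 8 libraries, 1098 were apart upwards in both lines and 1392 downwards in both, while 820 and 1056 were apart in opposite directions. The arms were apart upwards in 18.5% and downwards in 22.6% of regions in 697, and in 22.6% and 22.4% in KOPN-8. The regions higher in both made up 25.5% of the 697 list and 20.8% of the KOPN-8 list, and those lower in both 26.3% and 26.7%. Products of the single shares are 975 and 1182 for the same direction and 965 and 1194 for opposite ones. A change of at least 20 percentile points in both lines was seen in 82 regions upwards, 89 downwards and 47 and 37 in opposite directions. Regions with a change of that size in a single line were not counted. These 4 counts therefore have no single-line shares to stand against and were not tested.

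The regions with the highest smaller change were picked after their values were seen. At chr12:48287531-48288323 the ranks were 2.72 and 4.33 in the 697 controls against 34.0 and 71.8 in the clone, and 24.5 and 18.6 in the KOPN-8 controls against 65.3 and 73.2 in the clone. Every clone library was above every control library of its line, by 49.4 and 47.6 points on average. At chr12:47701484-47701893 they were 37.6 and 33.4 against 93.2 and 96.3 in 697, and 18.2 and 34.7 against 50.1 and 87.6 in KOPN-8. The downward region, at chr2:149632559-149633159, had ranks of 82.0 and 89.3 in the 697 controls against 16.1 and 17.6 in the clone, and of 62.8 and 50.04 in the KOPN-8 controls and 3.27 and 22.1 in the clone. At chr1:78742946-78743469 they were 46.1 and 47.1 against 6.87 and 10.9 in 697, and 83.3 and 83.2 against 19.2 and 40.5 in KOPN-8.

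Peaks were slightly wider in the clones on the 19 autosomes. The median width was 315 and 317 bp in the 697 controls, 322 and 326 bp in the clone, 326 and 328 bp in the KOPN-8 controls and 331 and 329 bp in the clone. The difference of 8 and 3 bp had no overlap in either line (exact permutation within lines, two-sided, p = 0.0556, the smallest possible). It did not hold its separation in lists of equal length, where the mean difference was 15.8 bp (exact permutation, p = 0.389), or in regions called in all 8 libraries, where it was 31.5 bp (exact permutation, p = 0.278).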

How the data were processed

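The 8 ATAC-seq libraries, 2 in each of 4 groups, came as 1 peak list each. The submitters' processing notes name Bowtie2, MACS2 and the build hg19. Their versions and settings, any removal of duplicates and any cut-site shift were not given in the sources used here. Each value deposited with a peak by the authors was read as a fold enrichment over background, a linear ratio, from its values. It served only to rank or filter peaks. No peak was narrower than 200 bp.

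Lists were merged, counted and ranked with Python 3.11.15, numpy 2.4.6, pandas 2.3.3 and scipy 1.17.1. Width matching summed, over 10 classes with about equal numbers of regions, the product of the shares of the 2 lines. Odds ratios within strata are Mantel-Haenszel estimates. Regions are not replicates, so counts have no p. Values with 1 number per library were tested by exact permutation within lines. The code was tested on simulated lists. The regions named are the 6 of each class with the highest smallest percentile. The rule, the comparisons and the lists were chosen with earlier results of these data known, and ranks by chromosome and window and the split by gene density were added after seeing the data. Planned counts at genes, gene lists, cell type markers and motifs were not run, because no hg19 genome or annotation was used. From the GRCh38 table only the density of protein-coding genes on each chromosome was taken. Alternatives were the strongest 50% of each list, equal list length, wider peaks, other merging, calls covering 50% of a region, windows of 1 kb, all autosomes, a replicate block and leaving out each library.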

Additional observations from a re-analysis of the deposited data

Results flagged for a closer look

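Opposite complete changes were found in 47 regions that the 697 clone gained while the KOPN-8 clone lost them, and in 26 regions with the reverse. Matched by width, the 2 lines' own shares give 56.7 and 19.03, and for both classes together 75.7 against 73 seen. By the rule that defines these classes, both clone libraries differ from both controls in each line, with opposite directions in the 2 lines. The difference between the lines was not tested. Chromosome 10 did the same in mean rank, with -0.64 in 697 and 0.49 in KOPN-8, also untested. On chromosome 19, which the comparison left out, both libraries of the 697 clone had a higher mean rank among regions called in all 8 libraries than both controls, by 14.8 percentile points, when all autosomes were ranked together. In KOPN-8 the difference there was 1.25, with controls at 55.6 and 56.0 and the clone at 58.7 and 55.4, so that the arms overlapped.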

How the results depend on the processing

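Counts are given in the order gained in both lines, lost in both, up in 697 but down in KOPN-8, and the reverse (main values 73, 31, 47 and 26). The strongest 50% of each list gave 45, 16, 34 and 10, peaks of at least 300 bp gave 59, 14, 38 and 10, and fixed windows of 1 kb gave 81, 47, 59 and 37. Lists of equal length gave 65, 41, 34 and 31. Direction was then shared by 62.0%, with an unmatched odds ratio of 2.53. Leaving out 1 library, which by construction asks for fewer calls, gave 101 to 225, 40 to 110, 70 to 148 and 39 to 85. Of the 24 named regions 3 stayed in their class with the strongest 50% and 1 with peaks of at least 300 bp. With the strongest 50% a region can stay only if its smallest percentile reaches that part of the lists. That count thus follows from the percentiles used to name the regions. With a replicate block, where a region counts once any same-numbered pair differs on balance, the counts were 2108, 1161, 1832 and 1026, which is the net change by construction.

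Same-numbered libraries did not deviate together (r of rank deviations 0.027 in 697 and -0.032 in KOPN-8), so the numbers were not taken as pairs. In the replicate block the smallest exact permutation p is 0.125.

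The net change in both lines fell back to 73, 31, 47 and 26 when complete changes were asked for, and gave 995, 531, 858 and 418 with the strongest 50% of each list and, with lists of equal length, 1142 for the third of these. Leaving out 1 library gave 1411 to 2427, 778 to 1535, 1277 to 2159 and 767 to 1426. The percentage of complete changes in the same direction ranged from 52.8% to 59.9% over the 8 libraries left out.

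The rho between the chromosome profiles of the 2 lines was 0.54 for log2 width in place of rank, 0.70 without chromosomes 16, 17, 20 and 22 and 0.62 to 0.89 with 1 library left out. The gene-dense minus gene-poor difference stayed between 1.27 and 2.27 and the difference in median width between 4.5 and 6.5 bp with 1 library left out. The share of regions moving the same way stayed above 50% and its odds ratio above 1 with each library left out. Shared gains did not outnumber shared losses without 697 control 1, where complete changes were 101, 110, 70 and 85. The same held without 697 clone 2, where net changes were 1411, 1535, 1277 and 1426. The rule then rests on 1 library of that arm, so these counts cannot say whether the order rested on the library left out. Without read counts, depth and openness cannot be told apart, and a region that is not called may lie just under the caller's threshold.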
